A study of Mus musculus with 6 samples.

Results

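These results concern 100 of the 30445 genes in a mouse RNA sequencing table, chosen as the genes whose level in induced macrophages (iMac) stood furthest above their level in fibroblasts and in a myeloid-like population of the same study. The table holds 6 libraries of messenger RNA: 2 of embryonic fibroblasts of the mouse (MEF), 2 of a population named myeloid-like cell complex in the labels (MCC), and 2 of iMac. All 3 groups are labelled wild type, and the labels give no treatment, age or strain. The series title names c-Myc as the factor that turns fibroblasts into macrophages, but the sources used here do not say how MCC and iMac were made or how they relate to each other. No label says that libraries of a group came from separate cultures, so every p-value below measures only the spread between these libraries. That spread is shared by all 3 groups for each gene, so uneven MEF libraries also weaken the comparison of iMac with MCC.

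The choice rested on CPM, a gene's count in units of 1e6 counts of its library. Genes with predicted names (Gm followed by a number, or ending in Rik) were left out, and 9520 of the others had at least 5 CPM in both iMac libraries. Each was scored by its lower iMac level over the highest of the 4 MEF and MCC levels plus 0.1 CPM, and the 100 highest scores were taken. The genes were therefore selected on all 6 libraries, and their rise in iMac over MCC and over MEF is a description of the choice and no finding. What the score did not use is the order of MEF and MCC, although it came from the same libraries. The scores ran from 1.67 to 8.38 with a median of 1.99. Scores of 2 or more were held by 49 genes, and scores of 3 or more by 11. At the threshold, Ccl6 at rank 100 and Hrh1 at the next rank had scores that both round to 1.67. Ccl6 was at 259 and 184 CPM in iMac against 72.0 and 110 CPM in MCC, while Hrh1 was at 6.97 CPM in iMac library 1. Of the 9520 genes, 1478 had a score above 1 and 178 a score of at least 1.5.

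Macrophages take up particles, microbes and lipoproteins through surface receptors, break the cargo down in lysosomes, and export or store the cholesterol and fatty acids that this releases. They sense immune complexes, lectin ligands, lysophospholipids and nucleotides, and they secrete lysozyme, chemokines and matrix proteases. Macrophages loaded with lipid are known for coating lipid droplets with perilipins and for exporting cholesterol through the transporters Abca1 and Abcg1, which are targets of the liver X receptors.

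The libraries differed in ways that touch these genes. Totals ranged from 34389817 to 39174367 counts. The 15 fibroblast markers summed to 42484 and 21785 CPM in MEF, to 2970 and 634 CPM in MCC libraries 1 and 2, and to 59.5 and 65.9 CPM in iMac, where 10 of the 15 were under 1 CPM. The MCC libraries thus differed from each other in fibroblast RNA, and both held more of it than iMac. The 20 macrophage markers summed to 39.4 and 74.2 CPM in MEF, 19661 and 18698 CPM in MCC and 26971 and 23662 CPM in iMac. The macrophage markers were present in iMac, with Csf1r, which receives the growth signal of macrophages, at 2738 and 2601 CPM and all 20 at 1 CPM or more in iMac. In RNA from whole populations, fewer cells of a type and less RNA per cell cannot be told apart. The part that the remaining fibroblast RNA of MCC plays in the MCC levels was not tested.

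The label "highest in induced macrophages only" held for the top level but not for presence. Most of the 100 genes were already well above MEF in MCC, and iMac then stood higher still. In edgeR's quasi-likelihood test with Benjamini-Hochberg adjustment over 18613 genes, 80 of the 100 were higher in MCC than in MEF, where 23.4% of all genes tested and 34.8% of the genes past the 5 CPM minimum were. Only 2 were lower, Fam214a and Gadd45b, against a background of 29.6% of all genes and 22.3% of those past the minimum. The other 18 were not called. These shares are not independent of the choice, since the score capped MEF and MCC levels together below the iMac level. Both MCC libraries lay above both MEF libraries for 89 genes and below for 3, and the libraries overlapped for 8. Among genes past the minimum, 51.2% had both MCC libraries on top. The median log2 fold change of the 100 in MCC over MEF was 2.57, against -0.05 for all genes tested. Setting genes without counts in MEF to their lower bound left it at 2.57. That step could not move it, because the 6 such genes lie above the median at their bounds too.

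The 100 genes covered a wide range of levels in MEF, where 31 genes had a mean under 1 CPM, 30 between 1 and 10 CPM, and 39 had 10 CPM or more. The MCC mean was at least 10 times the MEF mean for 41 genes and within 2-fold of it for 19.

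**Figure D1:**
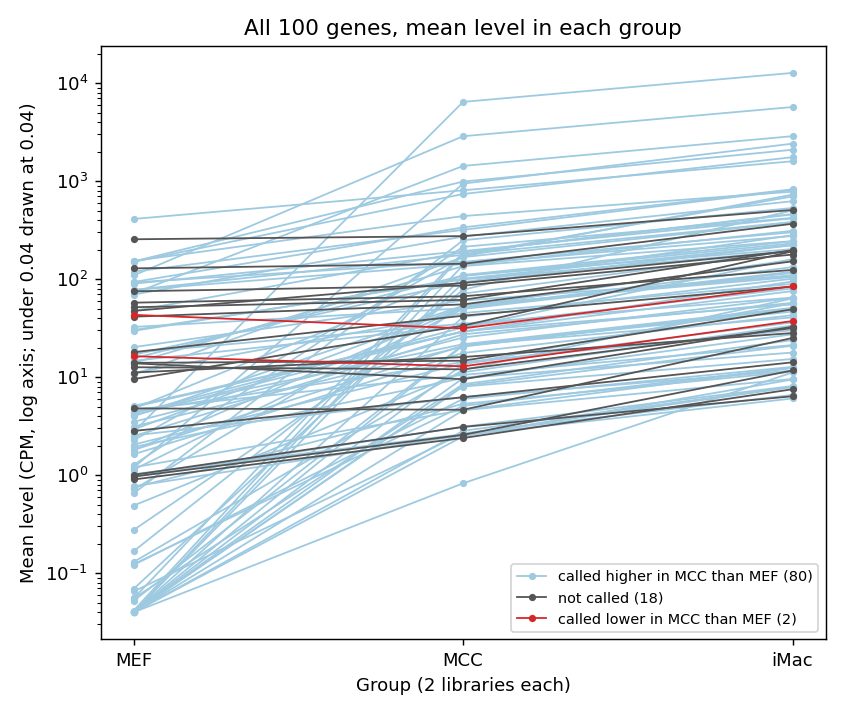
Mean level of each of the 100 genes in MEF, MCC and iMac (CPM on a log axis, 2 libraries a group), with lines coloured by the edgeR call of MCC against MEF. Of the lines, 80 are called higher in MCC, 18 are not called and 2 are called lower, and all end at their highest point in iMac because the genes were chosen for it.

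Against MCC, the iMac means of the 100 were 1.76 to 13.5 times as high, with a median of 2.37. The median log2 fold change was 1.38, where all genes tested had a median of -0.02 and the genes past the minimum 0.06 with a 90th percentile of 0.46. Without MCC library 1 the median of the 100 was 1.30, and without MCC library 2 it was 1.23. The same edgeR test called 2 of them higher in iMac than in MCC, Rnf144b and Tecpr1, and these were the only genes of 18613 called higher, a background of 0.0107%. None of the 100 was called lower, against the 2 genes called lower in all (0.0107%), Npnt and Id3. At an unadjusted p under 0.05, 94 of the 100 were higher and 0 lower, against 7.69% and 10.5% of all genes, and DESeq2 called 90 higher and 0 lower, against 7.72% and 10% of the genes it gave an adjusted p. When any 1 library was left out, edgeR called 33 without MCC library 2 and 0 without any of the others. All 100 were called higher in iMac than in MEF, where 25.1% of all genes were. Nothing is read from these counts, because the rule used these contrasts.

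The iMac libraries were close to each other. They lay within 1.2-fold for 80 of the 100 genes, where 91.8% of genes past the minimum did, and library 1 was the higher for 66, where it was for 41.9% of genes past the minimum. The widest gaps belonged to Slamf7, at 12.2 and 6.69 CPM, Abca6, at 6.52 and 9.68 CPM after 0.638 and 1.30 CPM in MEF and 2.69 and 3.54 CPM in MCC, Ccl6 and the pseudogene H2-T-ps. H2-T-ps was at 0.434 and 1.10 CPM in MEF, 2.20 and 2.92 CPM in MCC and 6.97 and 5.12 CPM in iMac. Plxnc1, Socs6, Plin2, Cyp27a1 and Clec12a differed least, with Plin2 at 2091 and 2086 CPM. The MCC libraries lay within 1.2-fold for 60 genes. The higher of them set the score's ceiling in nearly all cases: the highest of the 4 comparison libraries was MCC library 1 for 44 genes, MCC library 2 for 49 and a MEF library for 7.

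By location, the 100 genes lay on 19 chromosomes, with 12 on chromosome 11 (GRCm38, the assembly of mm10). GENCODE lists 98 as protein coding, Clec7a as a polymorphic pseudogene and H2-T-ps as an unprocessed pseudogene. Neighbours within 250 kb of each other formed 10 pairs, among them the lysozymes Lyz1 and Lyz2, 5.48 kb apart on chromosome 10, Ms4a14 and Ms4a7, 6.59 kb apart on chromosome 19, Cd300ld4 and Cd300ld3, 15.1 kb apart on chromosome 11, and Clec12a and Clec7a, 96.3 kb apart on chromosome 6. Wwp1 and Rmdn1 lay 1.37 kb apart on chromosome 4, and Pltp and Mmp9 83.1 kb apart on chromosome 2. For 14 genes, over 10% of the exonic bases are shared with another gene, and without a stated strand setting the counts of such genes are uncertain. The largest shares were 41.7% for Lratd2, 40.04% for Il12rb2, 38.6% for Tpbgl, 37.0% for Tmem140 and 35.7% for Tmem35b.

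RefSeq start-site windows (300 bases, 250 before and 50 after the start, GRCm38.p6) were at hand for 69 of the 100 genes. The PU-box GAGGAAGT, the word bound by the myeloid factor PU.1, was searched on both strands and stood in the windows of 7 of the 69 (10.1%), against 3.69% of the 27025 genes with a window in the RefSeq table. The stretches around it are shown for 5 genes, because PU.1 is the best known factor of macrophage promoters, with the PU-box in capitals. In Selenop the capitals read as the word on the other strand.

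Rasgrp3, chr17:75435815-75435902, plus strand: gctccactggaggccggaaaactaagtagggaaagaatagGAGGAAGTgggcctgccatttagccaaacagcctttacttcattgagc
Cd300ld4, chr11:115027073-115027160, minus strand: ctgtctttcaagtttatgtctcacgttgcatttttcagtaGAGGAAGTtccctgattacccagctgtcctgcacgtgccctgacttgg
Cd300ld3, chr11:115048470-115048557, minus strand: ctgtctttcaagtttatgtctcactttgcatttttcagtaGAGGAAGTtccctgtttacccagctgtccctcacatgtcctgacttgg
Selenop, chr15:3270546-3270633, plus strand: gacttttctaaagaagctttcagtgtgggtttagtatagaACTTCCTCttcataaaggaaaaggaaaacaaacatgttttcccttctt
Fam214a, chr9:74952794-74952879, plus strand: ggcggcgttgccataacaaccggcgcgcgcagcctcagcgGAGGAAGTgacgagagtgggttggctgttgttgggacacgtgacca

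The 2 Cd300 windows are near copies, identical at 285 of 300 positions (95%), so their shared match counts as 1 sequence seen at 2 neighbouring genes. The E-box CACGTG, the word bound by Myc with its partner Max and by other factors, also stood in the windows of 7 genes (10.1%), against 8.09% of all genes. One of them is Abca1, printed next with the E-box in capitals, because it is the best known cholesterol exporter of macrophages.

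Abca1, chr4:53159997-53160082, minus strand: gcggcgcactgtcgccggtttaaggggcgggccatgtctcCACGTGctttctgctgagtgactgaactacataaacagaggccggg

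Cd300ld4 and Fam214a held both words. The other words searched, all on both strands and able to overlap, were C/EBP TTGCNNAA (17.4% of the 69 against 12.2% of all genes), ISRE GAAANNGAA (15.9% against 9.76%), AP-1 TGANTCA (11.6% against 8.97%), NF-kB GGGNNNTCC (20.3% against 19.8%), RUNX TGTGGTT (5.80% against 6.09%) and the TATA box with the letters TATAAA (18.8% against 15.7%). A match describes the letters of these windows and not the binding of a factor.

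**Figure D2:**
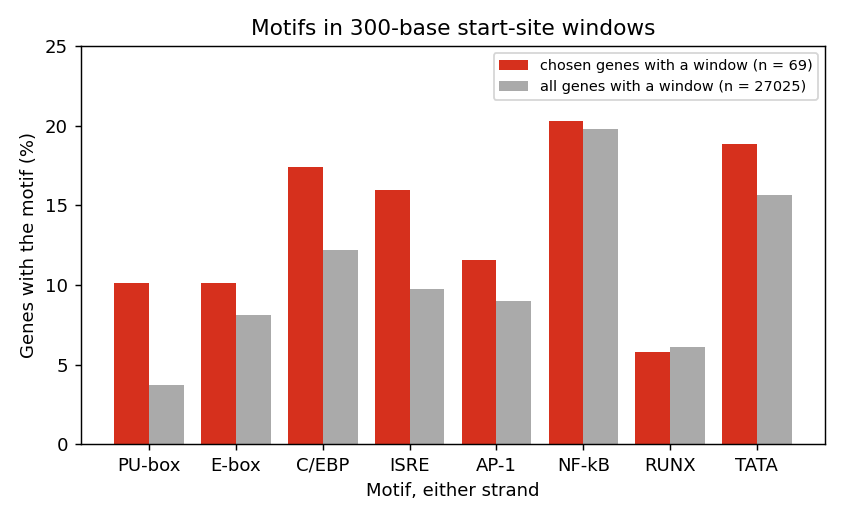
Percent of genes whose start-site window holds each of 8 short words on either strand, for the 69 chosen genes with a window and for all 27025 genes with a window in the RefSeq table. The PU-box pair of bars differs most in proportion, at 10.1% against 3.69%, and the NF-kB and RUNX pairs are nearly level.

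Immune surface receptors were the largest group with a common role, 18 genes, and all 18 were called higher in MCC than in MEF. Their median log2 fold change in that step was 8.64, or 7.42 with genes that had no counts in MEF at their bound, and 14 of the 18 were under 1 CPM in MEF. Their iMac means were 1.93 to 6.46 times the MCC means.

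Cd28, a costimulatory receptor best known from T cells, had one of the highest scores. Its level was 0.306 and 0.0276 CPM in MEF, 92.5 and 63.1 CPM in MCC and 532 and 473 CPM in iMac. It rose by 8.72 ± 0.72 (log2, SE) from MEF to MCC (adjusted p = 0.00129, edgeR quasi-likelihood test). The 11 T and NK cell markers measured beside it summed to at most 2.50 CPM in any library, and Cd3d and Cd3g, parts of the T cell receptor complex, were at 0.0839 CPM or less everywhere. Stab2, a scavenger receptor for hyaluronan, was at 0.204 and 0.0551 CPM in MEF, 13.3 and 10.3 CPM in MCC and 65.3 and 61.7 CPM in iMac. Cd93, a lectin-like receptor of myeloid and endothelial cells, was at 2.88 and 1.65 CPM in MEF, 214 and 127 CPM in MCC and 765 and 689 CPM in iMac. In all 3 genes the groups were fully separate, in the order MEF, MCC, iMac.

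Ms4a14 and Ms4a7 encode neighbouring membrane proteins of the Ms4a family. Ms4a14 had no counts in MEF, 11.5 and 15.6 CPM in MCC and 62.0 and 51.2 CPM in iMac, so that MCC was at least 340-fold higher than MEF, taking 3 counts over the MEF group as the floor. Ms4a7 had 3 counts in MEF, 121 and 94.4 CPM in MCC and 247 and 216 CPM in iMac, and its MCC over MEF ratio was 2708 (95% counting interval 926 to 13136). Such intervals and floors cover counting error only. Of the other 7 Ms4a genes tested, none was called between iMac and MCC, with 0 higher and 0 lower at an unadjusted p under 0.05, 0 higher and 1 lower by DESeq2, and a median log2 fold change of 0.14 that was -0.00 with library totals in place of TMM scaling.

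The C-type lectin receptors Clec10a, Clec12a and Clec7a were among the 100. Clec10a, which binds terminal galactose sugars, was at 0 and 0.11 CPM in MEF, 212 and 163 CPM in MCC and 477 and 437 CPM in iMac. Clec12a, an inhibitory receptor, was at 0.0511 and 0.0276 CPM in MEF, 18.4 and 23.7 CPM in MCC and 40.5 and 40.8 CPM in iMac. Clec7a, a receptor for fungal beta-glucan, was at 31.1 and 51.1 CPM in MCC and 86.1 and 116 CPM in iMac. Both had 3 counts or fewer in MEF, with MCC over MEF ratios of 528 (180 to 2562) and 3089 (554 to 122063). Their relatives had lower as well as higher values. Of the other 12 C-type lectin genes tested between iMac and MCC, edgeR called none, 2 were higher and 6 lower at an unadjusted p under 0.05, DESeq2 called 1 higher and 5 lower, and their median log2 fold change was -0.67, or -0.66 to -1.37 over the alternatives. Mgl2, the close relative of Clec10a, was at 6.51 and 9.26 CPM in MCC and 1.51 and 1.86 CPM in iMac, and Clec4n was at 94.8 and 114 CPM in MCC and 31.8 and 26.7 CPM in iMac.

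Fcgr2b, Siglec1 and Cd83 were further surface genes of the set. Fcgr2b, the inhibitory receptor for IgG, was at 0 and 0.0827 CPM in MEF, 200 and 158 CPM in MCC and 421 and 344 CPM in iMac. Siglec1, or sialoadhesin, was at 0.306 and 0.992 CPM in MEF, 234 and 264 CPM in MCC and 604 and 459 CPM in iMac. Cd83, a surface protein of activated antigen-presenting cells, was at 0.868 and 1.41 CPM in MEF, 56.0 and 43.0 CPM in MCC and 108 and 130 CPM in iMac. Their log2 fold changes from MEF to MCC were 11.96 ± 0.59, 8.55 ± 0.53 and 5.40 ± 0.26 (SE). For each of them the lowest iMac library stood above the highest MCC library, as the rule requires. Siglec1 belongs to a list of paired immunoglobulin-like, Siglec and CD300 receptors. The other 33 tested genes of that list had a median log2 fold change of -0.02 in iMac over MCC. At an unadjusted p under 0.05, 6 were higher and 7 lower, DESeq2 called 7 higher and 6 lower, and edgeR called none.

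Cd300ld4 and Cd300ld3, receptors of the CD300 family, had no counts in MEF. Cd300ld4 was at 7.60 and 8.70 CPM in MCC and 22.05 and 19.7 CPM in iMac, and Cd300ld3 at 4.04 and 5.13 CPM and then 9.37 and 9.74 CPM. MCC was at least 205-fold and 115-fold higher than MEF. Cd300ld3 stood at 53.2% and 59.0% of Cd300ld4 in MCC and at 42.5% and 49.3% in iMac, and because the genes are close copies, reads may have been split between them. Slamf7, a receptor of the SLAM family, was the least even, at 3.31 and 1.66 CPM in MCC. Il12rb2, a subunit of the interleukin 12 receptor, was at 6.16 and 5.81 CPM in MCC and 14.1 and 11.3 CPM in iMac, and it shares 40.04% of its exonic bases with Serbp1. Epor, the erythropoietin receptor, was at 0.664 and 0.827 CPM in MEF, 4.51 and 6.14 CPM in MCC and 10.9 and 11.8 CPM in iMac. Plxnc1, a semaphorin receptor, was at 5.11 and 4.44 CPM in MEF, 106 and 114 CPM in MCC and 243 CPM in both iMac libraries. Plxnc1 and Cadm1, an adhesion molecule, started from 4.44 to 97.9 CPM in MEF and rose by 4.46 ± 0.16 and 1.94 ± 0.36 to MCC.

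Lipid and sterol genes formed a group of 11, and 10 of them were called higher in MCC than in MEF, with a median log2 fold change of 2.25. Tmem86a, which hydrolyses lysoplasmalogens, was the exception at 1.14 ± 0.41 (adjusted p = 0.0681). Their iMac means were 1.97 to 3.95 times the MCC means.

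Cholesterol exporters and a lipid transfer protein were among them. Abca1, which loads cholesterol onto apolipoprotein, was at 126 and 174 CPM in MEF, 799 and 677 CPM in MCC and 1801 and 1706 CPM in iMac. Abcg1, its partner for high-density lipoprotein, was at 13.7 and 20.1 CPM in MEF, 71.8 and 114 CPM in MCC and 294 and 267 CPM in iMac. Pltp, the phospholipid transfer protein, was at 67.7 and 87.5 CPM in MEF, 149 and 204 CPM in MCC and 771 and 625 CPM in iMac. These are 3 widely known targets of the liver X receptors, and they rose by 2.25 ± 0.16, 2.42 ± 0.27 and 1.14 ± 0.21 from MEF to MCC (adjusted p = 0.000934, 0.00264 and 0.00979). Pltp shares 19.3% of its exonic bases with Ctsa. Nr1h3, which encodes the liver X receptor alpha and is not among the 100, was at 18.4 and 25.7 CPM in MCC and 16.1 and 14.1 CPM in iMac.

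Lipid uptake, storage and breakdown were represented as well. Lpl, the lipase that frees fatty acids from lipoproteins, was at 43.8 and 99.1 CPM in MEF, 1321 and 1535 CPM in MCC and 2931 and 2817 CPM in iMac. Its secreted inhibitor Angptl4 was at 11.05 and 11.03 CPM in MEF, 42.0 and 48.0 CPM in MCC and 89.8 and 88.9 CPM in iMac. Plin2, the coat protein of lipid droplets, was at 146 and 157 CPM in MEF and 1010 and 968 CPM in MCC, with the even iMac values given above. From MEF to MCC, Lpl rose by 4.29 ± 0.38 and Angptl4 by 1.96 ± 0.13 (log2, SE). Cyp27a1, a mitochondrial sterol hydroxylase, was at 1.51 and 2.07 CPM in MEF, 46.8 and 55.5 CPM in MCC and 116 and 115 CPM in iMac. Hpgd, which inactivates prostaglandins, was at 1.40 and 1.13 CPM in MEF, 209 and 218 CPM in MCC and 434 and 409 CPM in iMac. Gramd1b, a carrier of cholesterol from the plasma membrane to the endoplasmic reticulum, was at 25.5 and 39.4 CPM in MEF, 55.7 and 44.9 CPM in MCC and 136 and 129 CPM in iMac. Its call from MEF to MCC was marginal (0.59 ± 0.19, adjusted p = 0.0498) and was lost under library totals without scaling, under size factors, and without any of MEF library 1, MCC library 1 and either iMac library, with adjusted p from 0.0316 to 0.160 over all alternatives.

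Set beside the wider list of 38 tested lipid handling genes, the 7 that were among the 100 (Lpl, Plin2, Abca1, Abcg1, Pltp, Cyp27a1 and Hpgd) had log2 fold changes of 1.12 to 2.12 in iMac over MCC, by choice. For the other 31 the median was 0.18, or 0.05 with library totals and 0.01 without MCC library 2, edgeR called none, 8 were higher and 3 lower at an unadjusted p under 0.05, and DESeq2 called 6 higher and 3 lower. Apoe, the main apolipoprotein of macrophages, was at 11585 and 12619 CPM in MCC and 19695 and 16673 CPM in iMac. Mylip, another liver X receptor target, was at 41.2 and 48.1 CPM in MCC and 83.9 and 76.7 CPM in iMac. Srebf1, Scd1 and Scd2, also known as such targets, were not higher in iMac. Srebf1 was at 73.5 and 79.2 CPM in MCC and 58.9 and 61.5 CPM in iMac. Scd1 was at 13.2 and 2.64 CPM in MCC and 3.13 and 1.89 CPM in iMac, and Scd2 at 307 and 394 CPM and then 301 and 317 CPM. Ptgs2, which makes prostaglandin precursors, was at 100 and 4.74 CPM in MCC and 1.23 and 1.22 CPM in iMac.

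**Figure D3:**
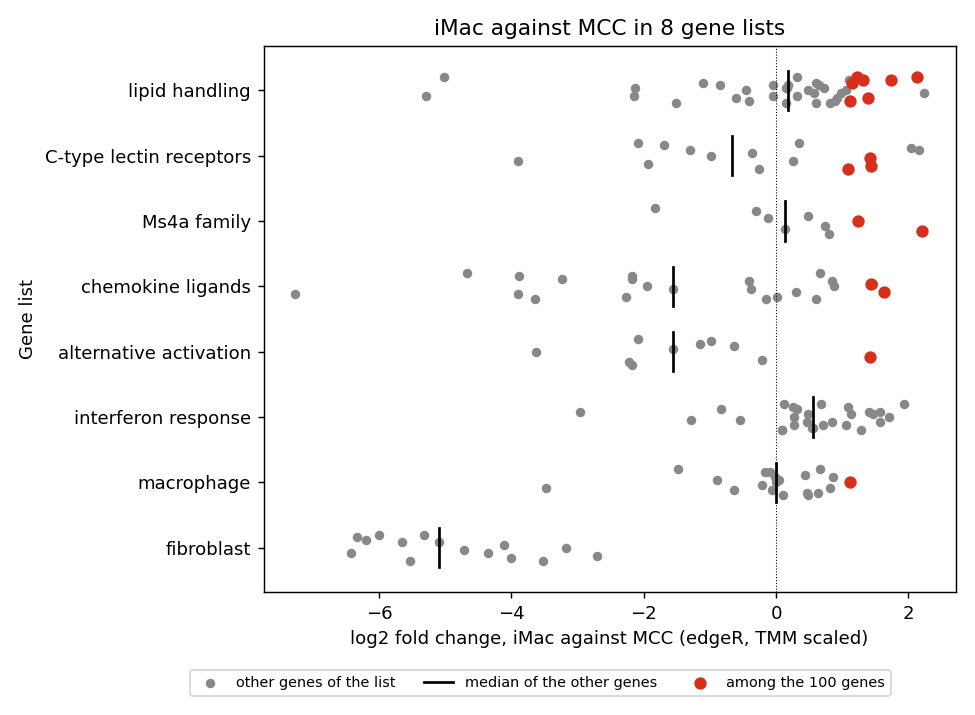
Log2 fold change of iMac over MCC (edgeR, scaled by TMM) for every tested gene of 8 lists, with the genes among the 100 in red, the others in grey and a bar at the median of the others. The red points lie to the right because they were chosen for it, while the medians of the others are 0.18 for lipid handling, -0.67 for C-type lectins and -5.09 for fibroblast genes.

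Secreted and matrix proteins contributed 11 genes, of which 9 were called higher in MCC than in MEF, with a median log2 fold change of 4.72. Lyz2, the lysozyme of macrophages and neutrophils, was the most abundant of the 100. It was at 1.66 and 3.86 CPM in MEF, 6564 and 6302 CPM in MCC and 14128 and 11298 CPM in iMac, and per kilobase of exon it stood at 9660 CPM in iMac, ahead of Selenop at 2006 CPM and Plin2 at 595 CPM. Its neighbour Lyz1, the lysozyme of intestinal Paneth cells, had no counts in MEF, 2.82 and 2.83 CPM in MCC and 8.84 and 6.98 CPM in iMac. Lyz1 amounted to 0.043% and 0.045% of Lyz2 in MCC and 0.0626% and 0.0618% in iMac, and how reads that match both genes were counted is unknown here. The other 23 tested genes of the list of acute-phase, antimicrobial and coagulation proteins had a median log2 fold change of -0.36 in iMac over MCC. At an unadjusted p under 0.05, 0 were higher and 8 lower, DESeq2 called 0 higher and 6 lower, and edgeR called none.

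Selenop, the plasma selenium carrier, was at 37.3 and 181 CPM in MEF, 3042 and 2700 CPM in MCC and 5911 and 5493 CPM in iMac, and it shares 15.4% of its exonic bases with Ccdc152. The chemokines Ccl4 and Ccl6, which attract leukocytes, were close to absent in MEF. Ccl4 had no counts there, 14.3 and 5.19 CPM in MCC and 30.3 and 24.3 CPM in iMac, at least 247-fold higher in MCC than in MEF. Ccl6 was at 0 and 0.138 CPM in MEF. Among the other 21 chemokine ligands tested, edgeR called none between iMac and MCC, 2 were higher and 7 lower at an unadjusted p under 0.05, DESeq2 called 2 higher and 5 lower, and the median log2 fold change was -1.56, with -0.24 when MCC library 1 was left out, -1.18 when MCC library 2 was, and -0.24 to -1.97 over the alternatives. Ccl2, the main attractant of monocytes, was at 142 CPM in both MEF libraries, 160 and 46.2 CPM in MCC and 6.83 and 8.23 CPM in iMac. Ccl9 was at 394 and 478 CPM in MCC and 740 and 718 CPM in iMac. Several of the 21 were expressed in MEF, with Ccl7 at 73.1 and 50.2 CPM and Cxcl12 at 199 and 52.3 CPM there, and the fibroblast markers summed to 2970 and 634 CPM in MCC and 59.5 and 65.9 CPM in iMac. The part of fibroblast RNA in these chemokine values was not tested.

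Pdgfb, a growth factor for mesenchymal cells, was at 4.06 and 5.84 CPM in MEF, 29.4 and 28.6 CPM in MCC and 78.5 and 72.4 CPM in iMac. Ebi3, a subunit of interleukin 27, was at 0 and 0.11 CPM in MEF, 7.90 and 9.01 CPM in MCC and 22.9 and 24.8 CPM in iMac, and it shares 23.4% of its exonic bases with Gm16712. Lama3, a laminin chain of basement membranes, was at 4.49 and 5.65 CPM in MEF, 33.9 and 24.3 CPM in MCC and 90.1 and 98.8 CPM in iMac. In each of these the groups were separate and in the same order. Tafa2, a small secreted protein, was at 6.19 and 3.03 CPM in MCC and 10.996 and 13.8 CPM in iMac. Col6a6, a collagen VI chain, and Mmp9, a gelatinase, were the pair not called from MEF to MCC. Col6a6 was at 1.38 and 0.551 CPM in MEF, 2.99 and 2.16 CPM in MCC and 11.2 and 12.1 CPM in iMac, and Mmp9 at 1.25 and 0.551, 2.42 and 2.36, and 8.45 and 6.57 CPM. Their log2 fold changes from MEF to MCC were 1.31 ± 0.52 and 1.31 ± 0.49 (adjusted p = 0.0843 and 0.073), and both passed without MEF library 1. Over all alternatives the adjusted p ran from 0.0167 to 0.199 for Col6a6 and from 0.0194 to 0.132 for Mmp9. Col1a1, the main collagen of fibroblasts, was at 568 and 37.7 CPM in MCC and 6.44 and 5.41 CPM in iMac.

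Signalling and cytoskeletal proteins made up 13 genes, of which 9 were called higher in MCC than in MEF, with a median log2 fold change of 1.80. Their iMac means were 1.86 to 13.5 times the MCC means.

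Rnf144b, a ubiquitin ligase, was at 3.98 and 4.52 CPM in MEF, 30.6 and 33.6 CPM in MCC and 155 and 166 CPM in iMac. It rose by 2.86 ± 0.10 from MEF to MCC (adjusted p = 0.000132). Rasgrp3, an activator of Ras and Rap, had uneven starting values, at 17.0 and 2.07 CPM in MEF, 43.7 and 23.3 CPM in MCC and 184 and 200 CPM in iMac. Its change from MEF to MCC was 1.68 ± 0.97 (adjusted p = 0.197), and it passed without MEF library 1, with adjusted p from 0.0106 to 0.420 over the alternatives. Gas7, a regulator of actin, was at 84.1 and 154 CPM in MEF, 321 and 316 CPM in MCC and 875 and 748 CPM in iMac. Wwp1, a ubiquitin ligase, was at 85.4 and 101.3 CPM in MEF, 322 and 351 CPM in MCC and 860 and 791 CPM in iMac. Both were expressed in fibroblasts and rose from MEF to MCC.

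The adaptors Stap1 and Samsn1, known from blood cells, were close to absent in MEF. Stap1 was at 0.0766 and 0.0276 CPM in MEF, 20.8 and 21.9 CPM in MCC and 46.0 and 47.1 CPM in iMac. Samsn1 had 1 count in MEF, with 8.14 and 7.86 CPM in MCC and 15.9 and 14.7 CPM in iMac. Zfyve28, an endosomal protein, was at 1.2 and 2.89 CPM in MEF, 14.03 and 13.3 CPM in MCC and 40.1 and 32.0 CPM in iMac. Arhgap18, which switches off small GTPases, was at 19.0 and 63.6 CPM in MEF, 52.4 and 58.0 CPM in MCC and 155 and 149 CPM in iMac, so MEF and MCC overlapped. Rasa4, Socs6, Arhgap18 and Rasgrp3 were the 4 of the group not called from MEF to MCC. Socs6, a suppressor of cytokine signalling, was at 50.2 and 64.6 CPM in MEF and 69.6 and 63.9 CPM in MCC, and 124 CPM in both iMac libraries. Plekho2 and Reps2, an endocytic adaptor, rose by 1.03 ± 0.17 and 3.69 ± 0.12.

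Receptors and channels for small ligands and ions numbered 5, of which 4 were called higher in MCC. S1pr1, the receptor for sphingosine phosphate, was at 28.9 and 30.3 CPM in MEF, 105 and 96.9 CPM in MCC and 226 and 219 CPM in iMac. Lpar6, a receptor for lysophosphatidic acid, rose by 1.53 ± 0.14 from MEF to MCC, Kcnj2, an inward rectifier potassium channel, by 2.63 ± 0.24, and Cacna1a, the pore of a neuronal calcium channel, by 1.64 ± 0.29. P2ry1, a receptor for ADP, was the one not called. It was at 2.91 and 6.67 CPM in MEF, 5.35 and 3.93 CPM in MCC and 25.4 and 24.7 CPM in iMac, a change from MEF to MCC of -0.07 ± 0.37 (adjusted p = 0.883). It shares 23.1% of its exonic bases with Gm37035.

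Lysosomal, autophagy and phagosome genes were 5, and 4 were called higher in MCC. Mpeg1, a pore-forming protein that kills engulfed bacteria, was at 0.613 and 1.76 CPM in MEF, 825 and 1060 CPM in MCC and 2550 and 2271 CPM in iMac. Hexa, a subunit of lysosomal hexosaminidase, was at 175 and 131 CPM in MEF, 429 and 451 CPM in MCC and 802 and 760 CPM in iMac. Ncoa4, the receptor that carries ferritin to autophagy, rose by 0.82 ± 0.12 from MEF to MCC, and Rab7b, a small GTPase of late endosomes, by 3.25 ± 0.22. Tecpr1, which tethers autophagosomes to lysosomes, was nearly level before iMac, at 49.1 and 54.1 CPM in MEF and 58.3 and 64.4 CPM in MCC, and stood at 195 and 200 CPM in iMac. Its log2 fold change was 0.19 ± 0.09 from MEF to MCC (adjusted p = 0.12).

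**Figure D4:**
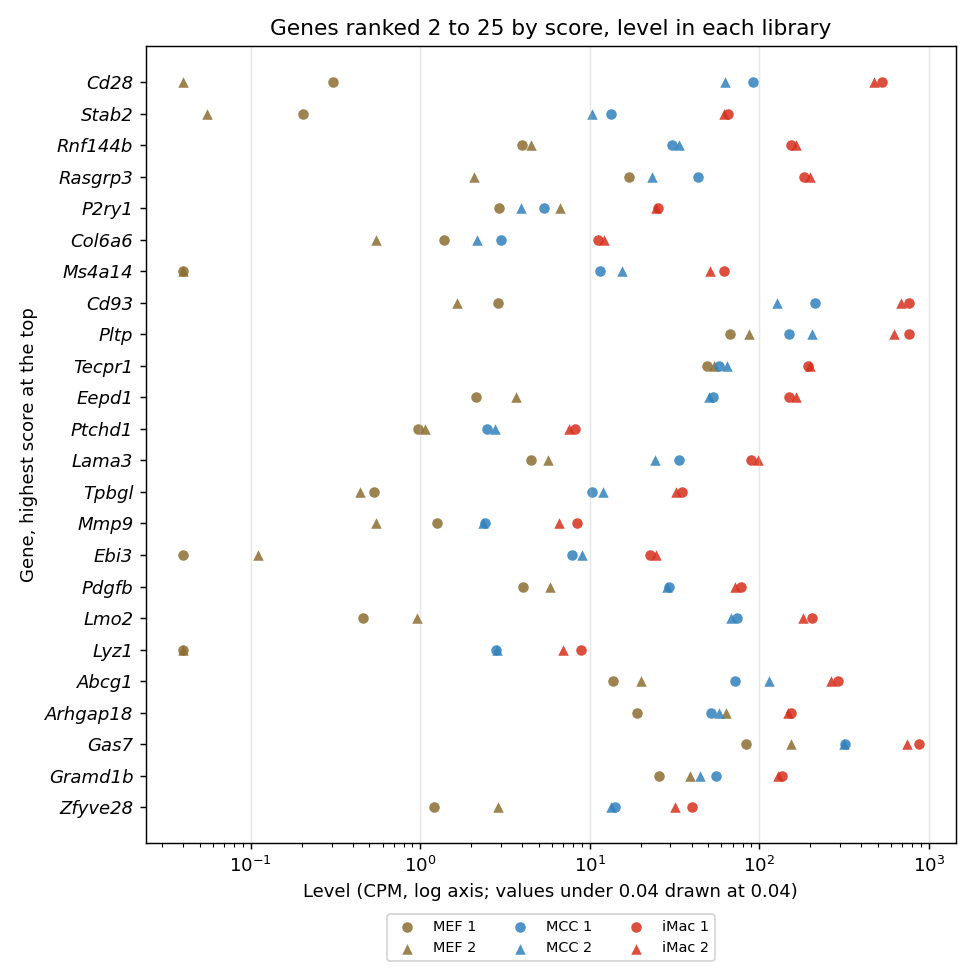
Level of the genes ranked 2 to 25 by score in each of the 6 libraries (CPM on a log axis, circles for library 1 and triangles for library 2, values under 0.04 CPM drawn at that point). The iMac points stand to the right in every row by choice, and the MCC points lie far from MEF for Cd28, Stab2 and Ms4a14 and next to them for Tecpr1, P2ry1 and Arhgap18.

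Nuclear proteins numbered 8, with 5 called higher in MCC than in MEF and 1 lower. Lmo2, a bridging factor of blood cell development, was at 0.459 and 0.965 CPM in MEF, 74.2 and 68.0 CPM in MCC and 206 and 182 CPM in iMac. Atf3, a stress-response factor, was at 4.95 and 26.1 CPM in MEF, 111 and 106 CPM in MCC and 210 and 195 CPM in iMac. St18, a zinc finger protein, Ahrr, the repressor of the aryl hydrocarbon receptor, and Mndal, of an interferon-inducible family with close copies, rose by 5.32 ± 0.67, 2.81 ± 0.32 and 3.44 ± 0.58. Gadd45b, a stress-response protein, was the one that fell: it was at 15.8 and 16.8 CPM in MEF, 13.5 and 12.2 CPM in MCC and 36.7 and 38.0 CPM in iMac, a change of -0.40 ± 0.12 (adjusted p = 0.0429). That call was lost when any single library was left out, with adjusted p from 0.0686 to 0.345, and over the other alternatives it ran from 0.0013 to 0.117. H1f2, a linker histone, and Tcim, a positive regulator of Wnt signalling, were not called between MEF and MCC, at 0.11 ± 0.26 and 0.06 ± 0.55. Tcim was uneven in MEF, at 5.90 and 22.0 CPM, against 16.4 and 12.9 CPM in MCC, so it is not shown to be level.

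Solute transporters were 5, of which 4 were called higher in MCC. Slco2b1, a carrier of organic anions, showed the largest fitted step of the 100 from MEF, where it had 1 count, to 133 and 145 CPM in MCC and 300.4 and 321 CPM in iMac. Its MCC over MEF ratio was 10454 (95% counting interval 1876 to 412937). Slc6a6, the taurine transporter, was already at 376 and 446 CPM in MEF, and stood at 792 and 819 CPM in MCC and 1651 and 1538 CPM in iMac. Slc46a3, a lysosomal carrier, was at 1.28 and 1.98 CPM in MEF, 16.6 and 18.6 CPM in MCC and 43.6 and 42.0 CPM in iMac. Slc2a6, a hexose transporter, rose by 1.61 ± 0.18 from MEF to MCC, and Slc9a7, a sodium-proton exchanger, was not called (1.12 ± 0.41, adjusted p = 0.0691). The serpins were Serpinb6b and Serpinb1c, both called higher in MCC, and Serpinb6a, which was not (0.04 ± 0.17). Serpinb6a was at 275 and 235 CPM in MEF, 298 and 252 CPM in MCC and 513 and 502 CPM in iMac, and Serpinb6b amounted to 10.6% and 11.2% of it in iMac. These serpins all lie on chromosome 13. Their sequences were not compared here, and how reads that match more than 1 gene were counted is unknown, so their counts are uncertain.

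The remaining 21 genes have varied or little known roles, with iMac means from 6.04 to 462 CPM, and 15 of them were called higher in MCC and 1 lower. Eepd1, a nuclease-like protein, was at 2.14 and 3.69 CPM in MEF, 53.3 and 51.0 CPM in MCC and 150.1 and 164 CPM in iMac. Dhrs3, which reduces retinaldehyde, was at 17.0 and 4.22 CPM in MEF, 162 and 174 CPM in MCC and 369 and 388 CPM in iMac. Evi2a was at 0.357 and 0.193 CPM in MEF and 53.4 and 54.6 CPM in MCC, and it overlaps Evi2 over 19.2% of its exonic bases. Ptchd1, a patched-domain protein, was at 0.97 and 1.08 CPM in MEF, 2.47 and 2.75 CPM in MCC and 8.25 and 7.59 CPM in iMac, and Tpbgl at 0.536 and 0.441, 10.4 and 12.04, and 35.0 and 32.1 CPM. Cnrip1, which binds the cannabinoid receptor, was at 11.8 and 13.4 CPM in MEF, 12.2 and 11.8 CPM in MCC and 30.5 and 32.7 CPM in iMac. Like Tecpr1 it was not called from MEF to MCC, at -0.13 ± 0.12. Also higher in MCC than in MEF were Aph1c, a subunit of gamma-secretase, Rcbtb2, Man1c1, a Golgi mannosidase, Rmdn1, Tcp11l2, Kctd12b, Tmem35b, Tmem140, H2-T-ps and 9930111J21Rik2, by 0.64 ± 0.14 (Man1c1) to 3.49 ± 0.22 (Aph1c), while Ankrd37 and Lratd2 were not called.

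Pmp22, a myelin protein, and Mturn were not called between MEF and MCC. Pmp22 was at 130 and 127 CPM in MEF, 178 and 109 CPM in MCC and 408 and 326 CPM in iMac. Mturn was at 12.2 and 15.4 CPM in MEF, 11.4 and 7.60 CPM in MCC and 33.1 and 32.1 CPM in iMac, and its change of -0.59 ± 0.23 did not pass (adjusted p = 0.0784) except by DESeq2 or without MCC library 1. Fam214a was the second gene called lower in MCC. It was at 41.9 and 44.4 CPM in MEF, 29.9 and 32.9 CPM in MCC and 76.0 and 92.4 CPM in iMac, a change of -0.52 ± 0.12 (adjusted p = 0.0213). Leaving out any 1 library other than MEF library 2 raised the adjusted p to between 0.0511 and 0.088, and the call was lost.

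Among the cell type lists, the 100 genes held 1 macrophage marker, Lyz2. Members of other lists were Hpgd (Kupffer and splenic red pulp macrophage), Mmp9 (osteoclast), Cd83 (dendritic cell) and Epor (erythroid and megakaryocyte). The other 19 macrophage markers had a median log2 fold change of -0.002 from MCC to iMac (-0.14 with library totals, 0.16 without MCC library 1), 7 higher and 3 lower at an unadjusted p under 0.05, 7 higher and 4 lower by DESeq2, and none called by edgeR. The other 12 Kupffer and red pulp genes tested had a median of -1.53, with 0 higher and 6 lower at an unadjusted p under 0.05. For these 12, DESeq2 called 0 higher and 5 lower, and edgeR called 1 lower, Id3. That gene was highest in MEF, at 122 and 164 CPM. The medians of the others were -0.04 for the osteoclast, 0.16 for the dendritic cell and 0.11 for the erythroid list. Adgre1, a receptor of mature macrophages, was at 577 and 506 CPM in MCC and 908 and 877 CPM in iMac, while Cd163, a haemoglobin scavenger receptor, was at 143 and 174 CPM in MCC and 19.0 and 6.78 CPM in iMac. Myc itself was at 66.6 and 67.5 CPM in MEF, 859 and 1221 CPM in MCC and 957 and 1022 CPM in iMac, a change of 0.07 ± 0.19 between MCC and iMac (adjusted p = 0.891).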

How the data were processed

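The authors deposited one table of raw counts of reads per gene symbol. Per the submitters' processing notes, reads were handled with STAR, the mm10 genome and featureCounts. For the annotation, strand setting, versions and treatment of multi-mapped reads, the sources used here say nothing. RNA was taken with Trizol and made into libraries with an mRNA-seq kit, per the labels' protocols.

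Levels are CPM on library totals. All 6 libraries (2 a group, 3 residual degrees of freedom) were fitted in edgeR 4.0.16 (R 4.3.3) with filterByExpr, TMM scaling and a two-sided quasi-likelihood test, with Benjamini-Hochberg adjustment over 18613 genes and a threshold of 0.05. Log2 fold changes come from that fit, and fold values are ratios of mean CPM. Each SE is the size of the log2 fold change over the square root of the test's F statistic. It is not a fitted standard error, and it can be too small for genes with few counts in MEF. All 100 genes passed the filter. Each gene has a shared estimate of spread, but the groups were unevenly spread. Chi-square of counts between the libraries of a group was 143.5 per degree of freedom in MEF, 47.2 in MCC and 9.36 in iMac. Serpinb6b was at 6.76 and 1.38 CPM in MEF, 29.1 and 29.8 CPM in MCC and 54.4 and 56.1 CPM in iMac. Its adjusted p for iMac against MCC was 0.472 in edgeR. A gene not called between iMac and MCC is therefore not shown to be level. The code of the fit was run on simulated counts that had the same spread for every gene and group. These data do not, so that run says nothing about how well changes are found here. Alternatives were other scaling, DESeq2 1.42.0, other filters, a replicate block and leaving out each library, which takes the spread of the remaining single library from the other groups. Genes were matched to GENCODE M21 for coordinates and exonic overlap. Promoter windows are RefSeq's.

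The 100 genes and all lists were chosen with earlier results of these data known, and roles were assigned after the names were seen. Values in each library are given for the 25 highest scores (1 of them is not reported here), the 10 most abundant, the 5 most and 5 least even between the iMac libraries, the largest changes from MEF to MCC, list members, and a few reference genes. Others were added after their values were seen.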

Additional observations from a re-analysis of the deposited data

How the results depend on the processing

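The count of the 100 genes higher in iMac than in MCC moved most with the processing: it was 2, and became 1 with library totals without scaling, 27 with no filter on low counts, 90 with DESeq2 and 0 with a replicate block, and from 0 to 33 when 1 library was left out, the 33 being without MCC library 2. The count lower in MCC than in MEF was 2, and became 1 with library totals, with no filter and with the replicate block, and 0 to 1 when 1 library was left out. The count higher in MCC than in MEF stayed at 74 to 83 and that of iMac over MEF at 92 to 100 over all alternatives. With other settings of the rule 70 to 97 of the 100 genes were chosen again, the fewest without MCC library 2. Library totals in place of TMM moved the median of all genes, iMac over MCC, from -0.02 to -0.16. Of the single-gene results for MCC against MEF, none changed direction and 533 kept their side of the threshold, while 22 passed it only under the alternative and 21 lost it. These results hold the same genes repeatedly, over the alternatives, and are not independent. The cause was not tested. The deviations of same-numbered libraries had a Pearson r of 0.131 for MEF and MCC, -0.0069 for MEF and iMac and 0.0023 for MCC and iMac. These were taken across 18613 genes, which are not independent. Whether same-numbered libraries share more than a number is not known here, and a low r cannot decide it. The replicate block moved the count higher in MCC from 80 to 79.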

Other observations

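Of the predicted genes that the name filter leaves out, 3 would have been among the 100. Gm13391 would have ranked 3 with a score of 4.80, at 0 and 0.0551 CPM in MEF, 2.14 and 1.57 CPM in MCC and 10.8 and 12.04 CPM in iMac. Gm19253 would have ranked 7 with 4.06 and Gm15513 would have ranked 14 with 2.86, at 25.9 and 17.2 CPM in iMac.

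Some gene groups had lower values in iMac than in MCC. Genes of alternative activation other than Clec10a had a median log2 fold change of -1.56 over the 9 tested, with 6 lower and 0 higher at an unadjusted p under 0.05, 5 lower and 0 higher by DESeq2, and none called by edgeR. Leaving out MCC library 1 brought this median to -0.83, and leaving out MCC library 2 to -1.89, the ends of its range over the alternatives. Arg1, the arginase of alternatively activated macrophages, was at 0.230 and 0.276 CPM in MEF, 123 and 30.3 CPM in MCC and 17.7 and 13.2 CPM in iMac. MCC library 1, which also held the higher sum of fibroblast markers (2970 CPM against 634 CPM), was the higher for Egr2 at 38.6 and 8.50 CPM and Il4ra at 537 and 270 CPM too. In MEF, Egr2 was at 7.94 and 9.59 CPM and Il4ra at 59.0 and 34.3 CPM. Socs2, at 17.6 and 7.66 CPM, and Tgm2, at 99.8 and 25.2 CPM, were on average highest in MEF. The part of fibroblast RNA in these values was not tested. Fcrls, an Fc receptor-like protein known from microglia, was at 633 and 304 CPM in MCC and 49.9 and 65.6 CPM in iMac, a difference of -2.89 ± 0.42 on the log2 scale (adjusted p = 0.0956 in edgeR, error as SE).

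The 2 genes called lower in iMac were Id3, an inhibitor of helix-loop-helix factors, at 46.4 and 44.3 CPM in MCC and 0.783 and 1.19 CPM in iMac, and Npnt, a matrix protein, at 21.4 and 17.4 CPM in MCC and 0.42 and 0.523 CPM in iMac. Both were highest in MEF, with Id3 at 122 and 164 CPM and Npnt at 55.2 and 63.6 CPM there. A list of 31 interferon response genes, of which 28 were tested and none is among the 100 (Mndal is not on the list), had a median log2 fold change of 0.55 in iMac over MCC, which was 0.27 with MCC library 1 left out and 1.27 with MCC library 2 left out. Their summed levels overlapped, at 230 and 476 CPM in MCC and 548 and 354 CPM in iMac. At an unadjusted p under 0.05, 4 were higher and 1 lower, DESeq2 called 3 higher and 1 lower, and edgeR called none.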
